A study of Rattus norvegicus with 4 samples.

Results

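A set of 45 genes of the cell cycle was followed in the newborn rat hippocampus after prenatal exposure to bisphenol A (BPA). They were chosen by symbol from a list of cyclins, cyclin-dependent kinases and their inhibitors, replication factors and mitotic genes, and all 45 were found under a gene ID among the 13171 gene ID rows (16375 rows in all) that are listed for every library. The samples were hippocampi of Wistar pups on postnatal day 1, whose dams received 5000 µg/kg of BPA or the vehicle each day from gestation day 1 to delivery, given into the stomach in corn oil. Each library was a pool of 3 hippocampi of 1 sex and 1 treatment, and the 4 of them (control males, BPA males, control females and BPA females) leave no group with a replicate library. Males and females are therefore described by 1 library against 1, and the only test of BPA sets both BPA libraries against both control libraries. The question addressed here is whether the proliferation program of the newborn hippocampus differed between exposed and control offspring.

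Cells enter the cycle when D-type cyclins and their kinases Cdk4 and Cdk6 phosphorylate the retinoblastoma protein Rb1, which releases E2F factors to switch on the genes of DNA replication. Origins of replication are licensed by the MCM helicase, which Cdc6 loads and geminin (Gmnn) keeps from being loaded again, and mitotic genes such as Ccnb1, Cdk1 and Plk1 follow later, many of them through a promoter element called the cell cycle genes homology region (CHR) together with CCAAT boxes. In the hippocampus around birth, the dentate gyrus still forms most of its granule cells, and dividing cells also include glial precursors and the cells of vessels and meninges. Bulk RNA cannot tell fewer dividing cells from less RNA per dividing cell.

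The promoters of the replication genes and of the mitotic genes differed in the motifs they held. RefSeq promoters of the rat assembly GRCr8, 250 bases before to 50 bases after the annotated start, were found for 34 of the 45 genes. Searched on both strands, the CHR in the form TTTGAA was present in 13 of 17 promoters of the G2 and mitosis genes (76.5%), in 1 of 10 promoters of the replication genes and in 0 of 7 promoters of the G1 genes, against 18.1% of all 27457 promoters of this length. An E2F-type motif, TTCCCGC or TTGGCGC, was present in 7 of 10 replication promoters (70%), in 2 of 7 G1 promoters and in 2 of 17 G2 and mitosis promoters, against 6.67% of all promoters. CCAAT was present in 8 of 10 replication promoters and 13 of 17 G2 and mitosis promoters, against 37.7% of all promoters. In 12 of the 13 G2 and mitosis genes with a CHR, a match began no more than 60 bases before the start. Promoters of 3 replication genes with E2F-type motifs and of 3 mitotic genes with a CHR are shown, since their genes include those whose BPA libraries lay below, above or among the controls. Capitals mark matches to the motifs searched, on either strand, and all are written from 5′ to 3′ along the gene.
Mcm3 (chr9:30733697-30733996, minus strand): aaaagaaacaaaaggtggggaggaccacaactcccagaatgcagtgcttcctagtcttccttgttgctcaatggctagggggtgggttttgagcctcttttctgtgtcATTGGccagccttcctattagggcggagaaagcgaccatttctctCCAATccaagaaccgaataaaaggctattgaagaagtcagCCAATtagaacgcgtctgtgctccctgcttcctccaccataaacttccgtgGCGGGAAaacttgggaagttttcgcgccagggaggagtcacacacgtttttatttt
Mcm6 (chr13:42404303-42404602, minus strand): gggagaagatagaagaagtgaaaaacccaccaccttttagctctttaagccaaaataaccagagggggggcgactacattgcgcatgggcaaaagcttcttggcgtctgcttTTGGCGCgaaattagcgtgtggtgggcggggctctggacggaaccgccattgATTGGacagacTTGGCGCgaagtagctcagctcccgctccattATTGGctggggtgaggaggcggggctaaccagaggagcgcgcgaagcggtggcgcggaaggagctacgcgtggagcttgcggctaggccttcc
Mcm7 (chr12:22163129-22163428, minus strand): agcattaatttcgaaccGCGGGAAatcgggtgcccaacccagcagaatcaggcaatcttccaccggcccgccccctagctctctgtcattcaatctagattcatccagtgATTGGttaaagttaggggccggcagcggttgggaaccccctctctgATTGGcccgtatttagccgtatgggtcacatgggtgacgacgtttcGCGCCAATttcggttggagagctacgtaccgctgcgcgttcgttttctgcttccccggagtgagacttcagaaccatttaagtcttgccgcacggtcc
Top2a (chr10:84473044-84473343, minus strand): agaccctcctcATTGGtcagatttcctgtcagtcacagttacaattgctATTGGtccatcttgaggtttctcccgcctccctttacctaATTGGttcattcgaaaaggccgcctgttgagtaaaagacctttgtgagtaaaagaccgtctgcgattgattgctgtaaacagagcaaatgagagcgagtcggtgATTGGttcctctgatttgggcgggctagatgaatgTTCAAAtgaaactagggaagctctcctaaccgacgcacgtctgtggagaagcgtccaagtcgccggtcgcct
Cdk1 (chr20:19265043-19265342, plus strand): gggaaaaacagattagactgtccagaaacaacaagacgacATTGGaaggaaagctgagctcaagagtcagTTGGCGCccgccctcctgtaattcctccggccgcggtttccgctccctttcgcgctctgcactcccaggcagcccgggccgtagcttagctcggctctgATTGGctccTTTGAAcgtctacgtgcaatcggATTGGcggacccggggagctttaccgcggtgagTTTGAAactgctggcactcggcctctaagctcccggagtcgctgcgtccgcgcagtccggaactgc
Mki67 (chr1:199952544-199952843, minus strand): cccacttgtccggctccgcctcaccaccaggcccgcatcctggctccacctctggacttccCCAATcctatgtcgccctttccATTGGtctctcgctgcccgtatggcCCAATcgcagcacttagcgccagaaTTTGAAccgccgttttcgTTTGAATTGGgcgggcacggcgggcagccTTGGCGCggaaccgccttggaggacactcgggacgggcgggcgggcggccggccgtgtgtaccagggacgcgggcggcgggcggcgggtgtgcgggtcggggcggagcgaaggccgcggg
In Top2a the CHR begins at position -22 from the start and the nearest CCAAT box at -57, and for the nearest of each in Cdk1 these positions are -16 and -49. In Mcm7 an E2F-type match and a CCAAT box share letters, as do a CHR and a CCAAT box in Mki67. A match is a description of the letters in the window and not of binding in this tissue.

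**Figure D1:**
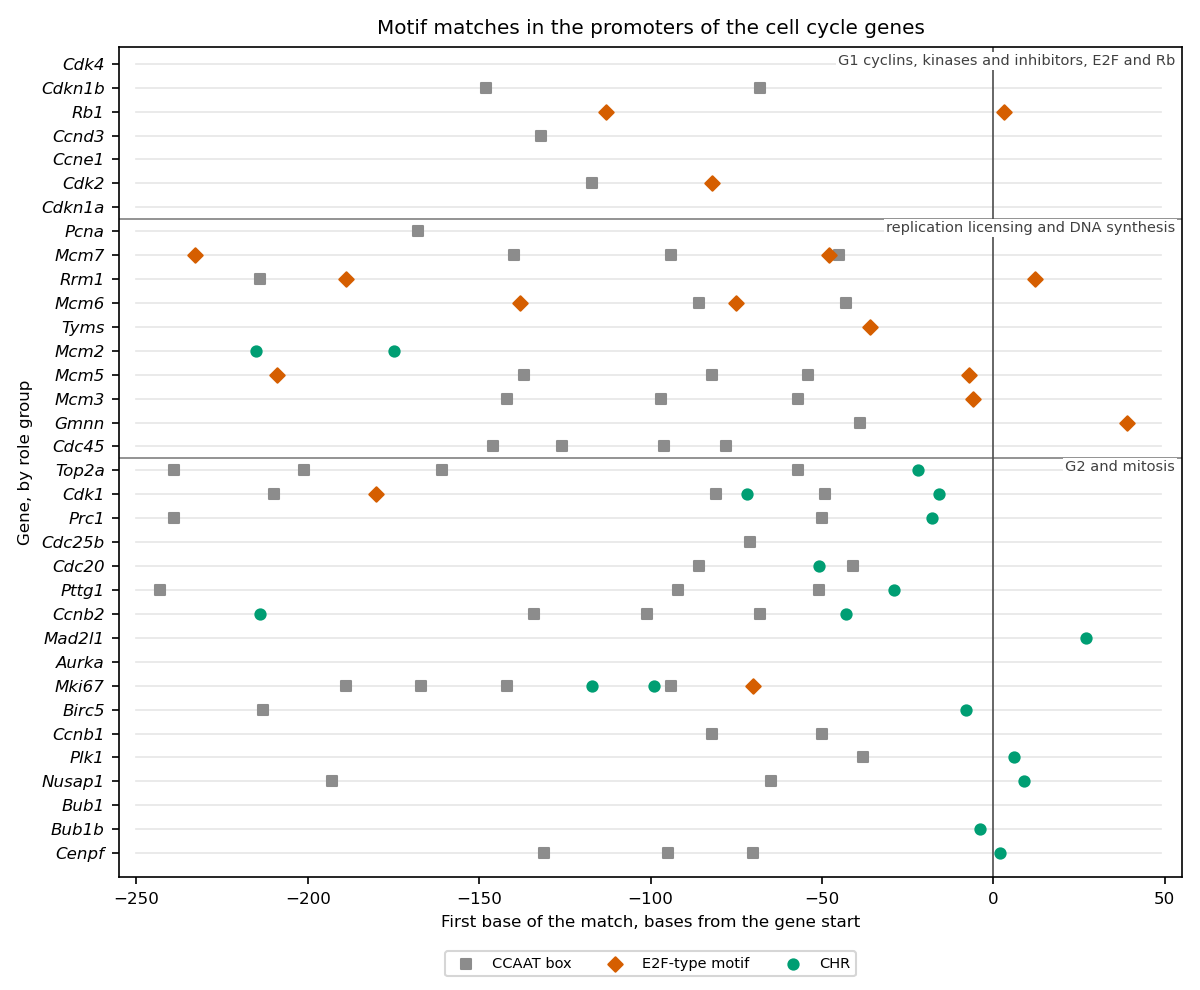
Positions of motif matches in the 34 promoters that were found, in bases from the gene start on the horizontal axis, with genes by role group on the vertical axis. The CHR matches, shown as circles, lie in 13 of the 17 G2 and mitosis promoters and mostly near the start, and the E2F-type matches, shown as diamonds, lie in 7 of the 10 replication promoters.

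The libraries differ in the other cells they hold, and this is given before the results. The 8 meningeal markers (Ptgds, Dcn, Lum, Col1a1, Col1a2, Col3a1, Slc6a13 and Aldh1a2) summed to 349 FPKM in control females against 94.3 in control males, 88.5 in BPA males and 75.2 in BPA females. The 7 choroid plexus markers summed to 266 and 707 FPKM in control and BPA males and to 9.49 and 45.6 FPKM in control and BPA females, with transthyretin (Ttr) at 256 and 690 FPKM in males and 3.96 and 42.4 FPKM in females, and with Kl and Kcnj13 at 0.03 and 0.09 FPKM in BPA females. The 8 vessel and pericyte markers summed to 127, 118, 145 and 118 FPKM and the 8 microglia markers to 53.01, 62.8, 63.8 and 55.8 FPKM, in the order control males, BPA males, control females, BPA females. Neuron markers were at high levels in every library, with 10 of 10 found and a sum of 2994 to 3335 FPKM. FPKM are mapped fragments scaled to the length of the gene model and to the size of the library, and steps in the low values place the depth between 8560000 and 8670000 fragments a library.

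The level of the cell cycle genes in the newborn hippocampus spanned a wide range, from 0.80 FPKM for Cdc6, the loader of the MCM helicase, to 143 FPKM for Cdk4, the G1 kinase (means of the 4 libraries). The median over the 45 genes was 7.04 FPKM, against 9.44 FPKM for all rows with a gene ID. The 11 G1 genes had a median of 12.5 FPKM, the 13 replication genes 9.11 FPKM and the 21 G2 and mitosis genes 6.50 FPKM. Of the gene ID rows of the last group, only those of Top2a and Cdk1 had means of at least 10 FPKM. With transcripts that lack a gene ID added (new gene models, described below), Aurka was at 16.3 to 25.1 FPKM. After Cdk4 came Pcna, the sliding clamp of the replication fork, at 58.0 FPKM, the cyclin Ccnd2 at 51.9 FPKM and the CDK inhibitor Cdkn1b (p27) at 39.6 FPKM. Cdk4 was at 144 and 148 FPKM in control and BPA males and at 139 and 140 FPKM in control and BPA females. At the other end, Cdc45, a helicase cofactor, had a mean of 2.60 FPKM, with 2.84 and 2.35 FPKM in control and BPA males and 3.15 and 2.06 FPKM in control and BPA females, and the kinetochore protein Cenpf had a mean of 2.36 FPKM. Cdc6 was at 0.88 and 0.66 FPKM in males and at 0.99 and 0.67 FPKM in females, control first.

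Within families the levels were unequal on this per-length scale. Among the D-type cyclins, Ccnd2 had a mean of 51.9 FPKM, Ccnd3 13.2 FPKM and Ccnd1 12.5 FPKM, and each library of Ccnd2 was above every library of the other two. Cdk4 stood far above Cdk6, at 143 against 4.13 FPKM, and the inhibitor Cdkn1b far above the p53 target Cdkn1a (p21), at 39.6 against 3.41 FPKM. The 6 subunits of the MCM helicase form a ring with equal numbers of each. Their gene ID rows ranged from 32.9 FPKM for Mcm7 and 19.5 FPKM for Mcm6 to 6.19 FPKM for Mcm3. Between these were Mcm4 at 13.5 FPKM, Mcm2 at 9.11 FPKM and Mcm5 at 7.76 FPKM. With its new gene models added, Mcm4 was at 14.8 to 26.7 FPKM. Rrm1, the large subunit of ribonucleotide reductase, was at 26.5 FPKM and the small subunit Rrm2 at 6.06 FPKM. Mki67, the gene of the proliferation marker Ki-67, had a mean of 5.78 FPKM, which for its 9796 bases stood for about 430 to 580 fragments a library. Of the 45 genes, 17 had fewer than 100 fragments in at least 1 library, and Cdc6 had 15 to 22.

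**Figure D2:**
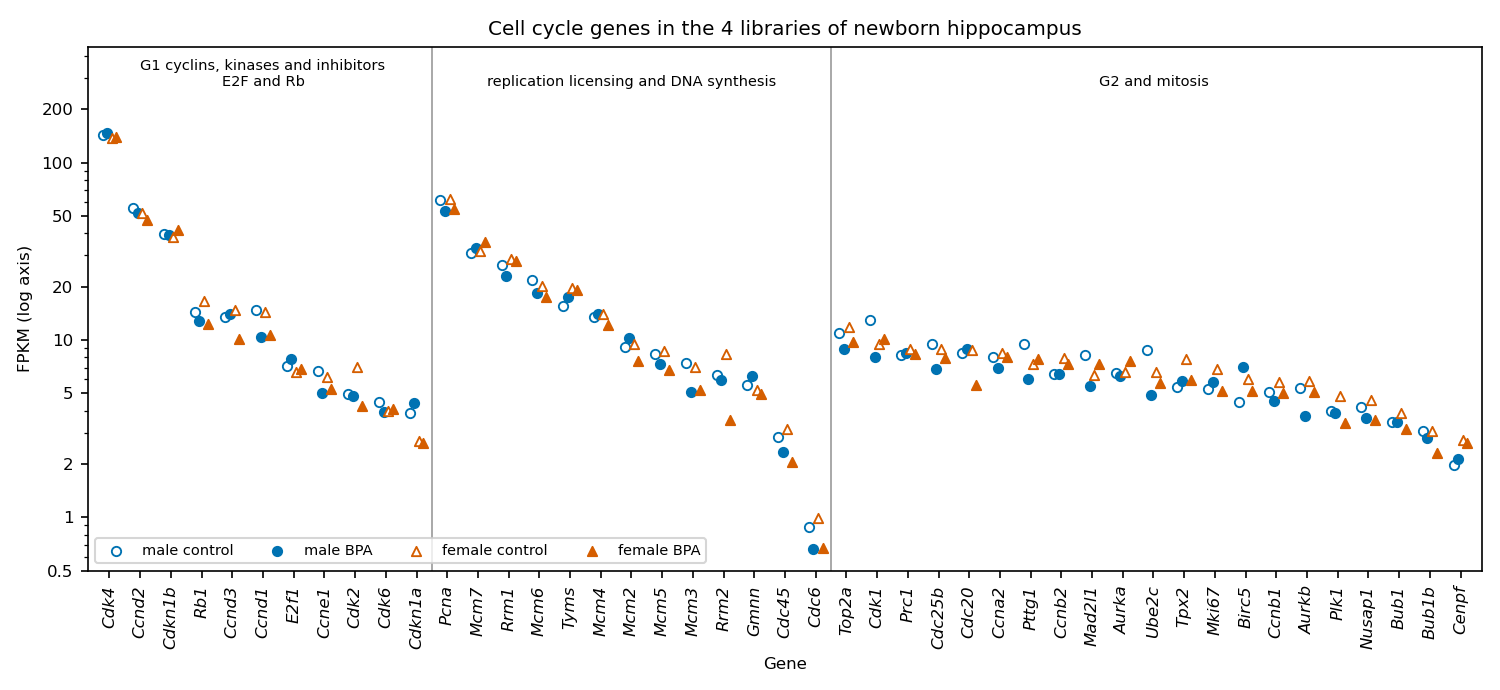
FPKM of each gene on a log axis in the 4 libraries, by role group and in order of the mean level, with open symbols for control, filled symbols for BPA, circles for males and triangles for females. Ccnd1, Mcm3 and Top2a have both filled symbols below both open ones, and Mcm7 has both above.

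With both sexes together, 0 of the 44 genes with a mean of at least 1 FPKM passed an adjusted p under 0.05 in limma, and 0 of all 13542 rows tested did (0%). At an unadjusted p under 0.05, 3 of the 44 were lower in BPA (Ccnd1, Mcm3 and Ube2c; 3.11% of all rows) and 0 were higher (1.6% of all rows). With sex as a covariate, which pairs the libraries by sex, 6 of the 44 passed the unadjusted p and 0 the adjusted p. The rise was not limited to these genes, since 1216 of all 13542 rows passed the unadjusted p there, against 637 in the main fit. The count was 4 of the 44 with gene ID rows only (556 of 10857 rows) and 4 of 36 at a mean of at least 5 FPKM (439 of 9445 rows). It was 2 of the 44 with new gene models summed or with either other scaling (627 to 636 rows). The smallest adjusted p of a cell cycle gene in limma was 0.973 in the main fit and 0.379 with sex as a covariate. Below that threshold the values leaned to lower levels in BPA. The mean change was negative for 34 of the 44 genes, against 54.4% of all rows, with a median log2 change of -0.16 against -0.02 over all rows. Both BPA libraries lay below both control libraries in 20 of the 44 genes, where 19.9% of all rows and 20.2% of the gene ID rows did so, and above them in 1 gene, Mcm7, where 13.8% of all rows and 13.3% of the gene ID rows did. The 44 genes are not independent of each other, since dividing cells express most of them together, and 4 libraries carry all of these counts.

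Among the G1 genes, cyclin D1 (Ccnd1), which links growth signals to the cycle, was at 14.7 FPKM in control males and 14.3 in control females and at 10.4 in BPA males and 10.7 in BPA females. The controls lay close to each other, and so did the BPA libraries. The log2 change was -0.43 ± 0.12 (SE, 2 libraries against 2), with an unadjusted p of 0.00975 and an adjusted p of 0.973 in limma, and over the alternatives the adjusted p was between 0.379 and 1. The other D-type cyclins did not share this pattern. Ccnd2 was at 55.7 and 52.1 FPKM in control males and females and at 52.2 and 47.8 FPKM in BPA males and females, and its groups overlapped. Ccnd3 was at 13.6 and 14.1 FPKM in control and BPA males and at 14.8 and 10.2 FPKM in control and BPA females, so that only the BPA female library stood apart.

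Rb1, the gate of the G1 phase, was at 14.5 and 16.7 FPKM in control males and females and at 12.8 and 12.3 FPKM in BPA males and females, a log2 change of -0.29 ± 0.13 (SE). Cyclin E (Ccne1), which with Cdk2 starts S phase, was at 6.66 and 6.19 FPKM in the controls and at 5.05 and 5.27 FPKM in the BPA libraries. Cdk2 was at 4.95 and 4.85 FPKM in control and BPA males and at 7.06 and 4.22 FPKM in control and BPA females, and most of the distance between the groups came from the control female library. Cdk4, Cdk6, E2f1 and the inhibitors Cdkn1a and Cdkn1b had log2 changes between -0.06 and 0.09 with overlapping groups. E2f1, the factor that switches on replication genes, was at 7.12 and 6.57 FPKM in the controls and at 7.87 and 6.89 FPKM in the BPA libraries. Of the 11 G1 genes, 7 were lower in BPA, 4 without overlap (Ccnd1, Ccne1, Cdk2 and Rb1), against 54.4% and 19.9% of all rows, and the median log2 change was -0.11.

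Of the 12 replication genes tested, 9 were lower in BPA, 6 of them without overlap (Cdc45, Mcm3, Mcm5, Mcm6, Pcna and Rrm2), against 54.4% and 19.9% of all rows, and the median log2 change was -0.15. Mcm3, whose promoter with its E2F-type match is printed above, was at 7.42 and 7.04 FPKM in control males and females and at 5.07 and 5.24 FPKM in BPA males and females, a log2 change of -0.42 ± 0.15 (SE) with an unadjusted p of 0.025 and an adjusted p of 0.973 in limma. The helicase subunits did not share 1 direction. Mcm6 was at 21.9 and 20.2 FPKM in the controls and at 18.5 and 17.4 FPKM in the BPA libraries, and Mcm5 at 8.31 and 8.66 against 7.34 and 6.74 FPKM. Mcm7, which also has E2F-type matches, was at 31.2 and 31.8 FPKM in the controls and at 33.0 and 35.9 FPKM in the BPA libraries, a log2 change of 0.12 ± 0.11 (SE). Mcm2 and Mcm4 were higher in BPA males and lower in BPA females than in the controls of that sex.

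Pcna was at 61.3 and 62.2 FPKM in control males and females and at 53.4 and 54.97 FPKM in BPA males and females, a log2 change of -0.19 ± 0.09 (SE), which rests on 509 to 596 fragments a library. Among the 44 genes tested, the gene ID row of Rrm2 had the lowest change in the combined comparison, -0.57 ± 0.24 (SE). This change rested on the females. Rrm2 was at 6.38 and 5.95 FPKM in control and BPA males and at 8.38 and 3.54 FPKM in control and BPA females. Without the BPA female library the combined change was -0.26. With the new gene model of the same protein added, the combined change was -0.09 and that in females was -0.16. Rrm1 was at 26.4 and 23.0 FPKM in males and 28.6 and 28.1 FPKM in females, control first. Thymidylate synthase (Tyms), at 15.5 and 17.6 FPKM in males and 19.7 and 19.2 FPKM in females, and geminin, at 5.55 and 6.25 FPKM in males and 5.24 and 4.96 FPKM in females, showed no common direction. With its new gene model added, geminin had log2 changes of 0.06 in males and 0.37 in females. Cdc6 had under 1 FPKM in every library and was not tested.

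Of the 21 G2 and mitosis genes, 18 were lower in BPA, 10 without overlap, against 54.4% and 19.9% of all rows, and the median log2 change was -0.16. The 10 were the kinases Aurkb, Bub1, Bub1b and Plk1, the cyclins Ccna2 and Ccnb1, the phosphatase Cdc25b, the spindle protein Nusap1, the topoisomerase Top2a and the ubiquitin-conjugating enzyme Ube2c. Top2a, which untangles chromosomes, was at 11.0 and 11.9 FPKM in control males and females and at 8.89 and 9.76 FPKM in BPA males and females, with changes of nearly equal size in both sexes. Its log2 change was -0.27 ± 0.13 (SE, 2 libraries against 2), and its unadjusted p of 0.0806 did not pass. Ube2c was at 8.77 and 6.57 FPKM in the controls and at 4.92 and 5.73 FPKM in the BPA libraries, a log2 change of -0.45 ± 0.18 (SE) with an unadjusted p of 0.0452 and an adjusted p of 0.973 in limma, from 30 to 54 fragments a library. The change was -0.26 without the control male library and -0.30 with the new gene model of Ube2c added.

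Mki67 was not among the genes without overlap. It was at 5.28 and 5.81 FPKM in control and BPA males and at 6.87 and 5.16 FPKM in control and BPA females, so that the groups overlapped and the direction differed between the sexes. The log2 change in the combined comparison was -0.12 ± 0.18 (SE), where the median of the 21 genes was -0.16. Mki67 therefore cannot be set apart from its group. Its counting interval was -0.05 to 0.33 in males and -0.60 to -0.23 in females. Cyclin B2 (Ccnb2), at 6.45, 6.45, 7.97 and 7.29 FPKM, the cytokinesis regulator Prc1, at 8.29, 8.49, 8.95 and 8.36 FPKM, and Cenpf, at 1.97, 2.14, 2.73 and 2.61 FPKM, in the order control males, BPA males, control and BPA females, differed little with treatment. Among these 21 genes the mean change was positive for Aurka, Birc5 and Cenpf only. With new gene models added, that of Aurka was -0.22 and that of Ccnb2 was 0.08 in place of -0.06, so that both directions turned. The mitotic kinase Aurka was at 6.48 and 6.25 FPKM in males and at 6.57 and 7.59 FPKM in females, and Birc5 at 4.46 and 7.07 FPKM in males and at 6.02 and 5.17 FPKM in females, control first.

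**Figure D3:**
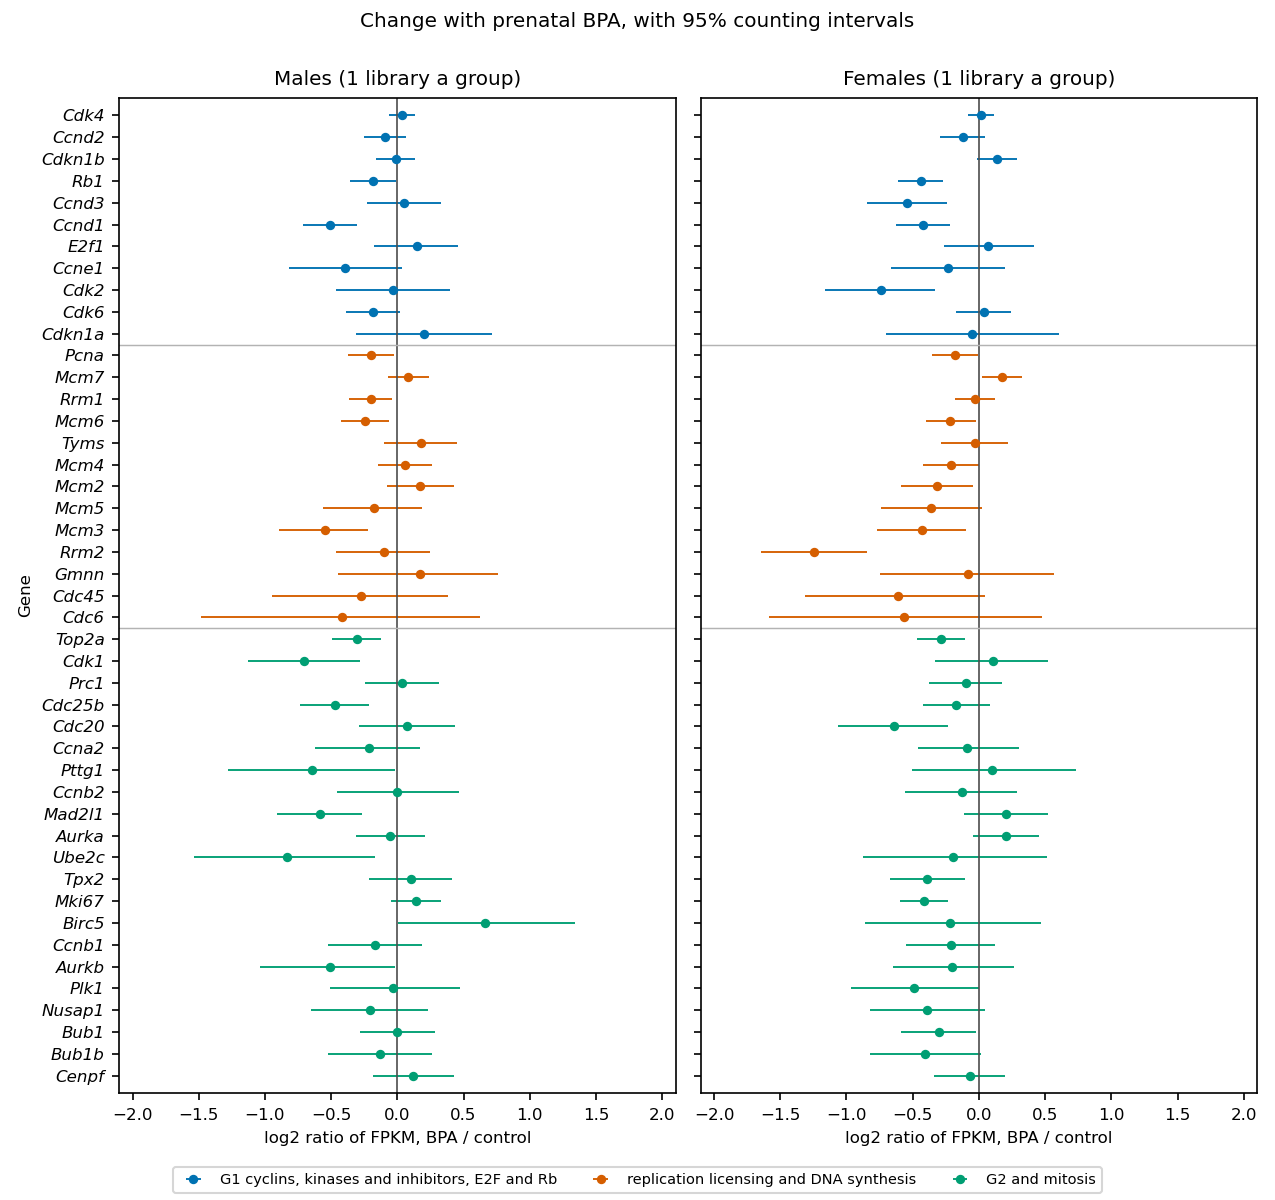
Log2 ratio of FPKM in BPA over control for each gene, males on the left and females on the right, with 95% intervals that cover counting error only, and genes by role group in order of level. Ccnd1, Mcm3, Mcm6, Pcna, Rb1 and Top2a are the genes whose interval lies below 0 in both panels.

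In males, with 1 library against 1 and no test, 4 of the 44 genes were past a log2 change of 0.5 downward, all of them mitotic (3.86% of all rows and 2.06% of gene ID rows), and 1 was past it upward (3.34% and 1.34%). Ube2c was lower by a log2 change of -0.72, from 8.77 to 4.92 FPKM. Cdk1, the mitotic kinase, went from 13.0 to 8.01 FPKM (-0.64), securin (Pttg1) from 9.48 to 6.07 FPKM (-0.57), and the checkpoint protein Mad2l1 from 8.26 to 5.51 FPKM (-0.51). The gene past 0.5 upward was survivin (Birc5), a subunit of the Aurora B complex, from 4.46 to 7.07 FPKM (0.56), while Aurkb of the same complex went from 5.35 to 3.75 FPKM. In all, 28 of 44 genes were lower in BPA males, against 50.4% of all rows, with a median of -0.09. The 95% counting interval of the ratio lay below 0 for 13 genes (13.7% of all rows) and above 0 for Birc5 alone (14.2%), whose lower bound was 0.006. All 7 choroid plexus markers were higher in BPA males than in control males, and the part of those cells in the result was not tested.

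In females, 4 of the 44 genes were past 0.5 downward (6.79% of all rows and 4.93% of gene ID rows) and 0 upward (3.18% and 1.17%). They were Rrm2, from 8.38 to 3.54 FPKM (-1.05, or -0.16 with its new gene model added), Cdk2, from 7.06 to 4.22 FPKM (-0.63), the anaphase activator Cdc20, from 8.74 to 5.59 FPKM (-0.56), and Ccnd3, from 14.8 to 10.2 FPKM (-0.50). None of these was past 0.5 in males, and the difference between the sexes cannot be tested with 1 library for each group. In females 35 of 44 genes were lower, against 56.5% of all rows, with a median of -0.18 against -0.04 over all rows, and after quantile normalization the median of the genes was -0.10 and 2 genes were past 0.5. Counting intervals lay below 0 for 15 genes (21.6% of all rows) and above 0 for Mcm7 (15.1%). The control female library, against which these values are set, is the library with the high meningeal markers, and the part of those cells in the result was not tested. Without that library the combined comparison gave a median of -0.13 with 32 of 44 genes lower. All 8 meningeal markers and all 8 vessel markers were lower in BPA females than in control females.

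The male and the female comparison use separate control libraries. Of the 44 genes, 22 were lower in both sexes (31.6% of all rows were), 3 were higher in both (Cdk4, E2f1 and Mcm7; 24.4% of all rows), 18 went in opposite directions and Ccnb2 had equal values in the male libraries. Cdk1, Pttg1 and Mad2l1 were lower in BPA males but at 9.45 and 10.2, 7.30 and 7.82, and 6.32 and 7.29 FPKM in control and BPA females. Cdc20 was lower in BPA females but at 8.43 and 8.85 FPKM in control and BPA males. The 6 genes with counting intervals below 0 in both sexes were Ccnd1, Mcm3, Mcm6, Pcna, Rb1 and Top2a. The upper bound was only -0.008 for Rb1 in males and -0.006 for Pcna in females. The share of all rows with intervals below 0 in both sexes was not counted.

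**Figure D4:**
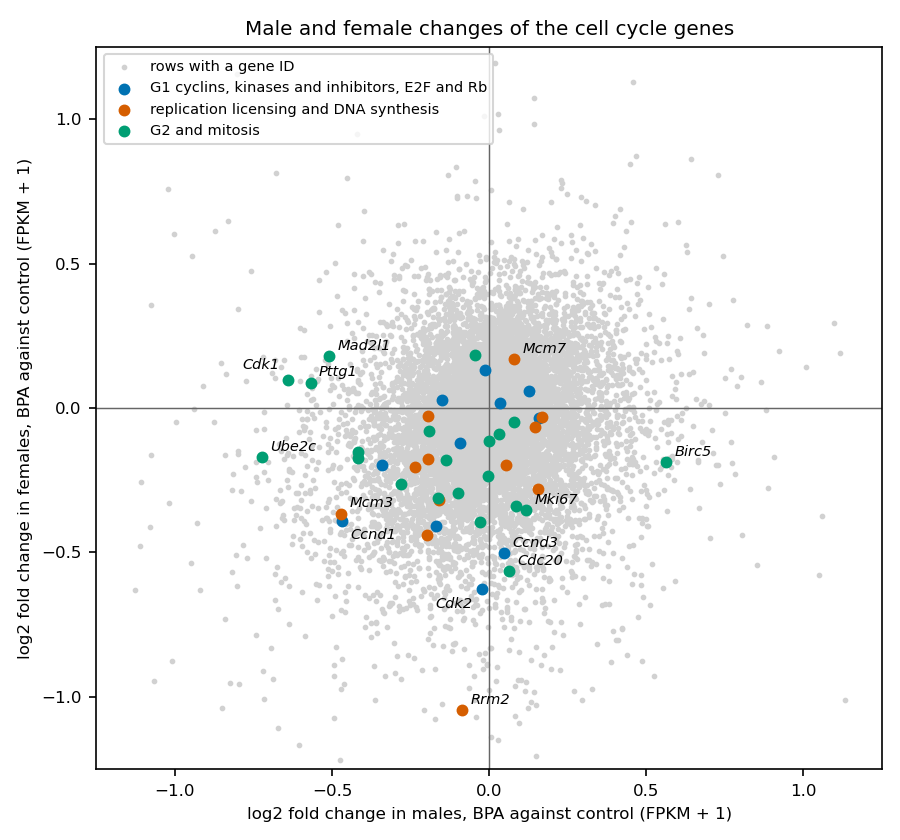
Log2 fold change on FPKM + 1 in males (horizontal) and in females (vertical) for the 44 genes, by role group, over all gene ID rows in grey, of which 50 lie outside the axes. Ccnd1 and Mcm3 are lower in both sexes by similar amounts, while Cdk1, Pttg1 and Mad2l1 lie past -0.5 on the male axis and Rrm2, Cdk2 and Cdc20 past it on the female axis.

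Between the sexes, with both treatments together, 0 of the 44 genes passed an adjusted p under 0.05 in limma (0.00738% of all rows, which is 1 row). At an unadjusted p under 0.05, Cdkn1a was lower in females (6.76% of all rows were) and 0 genes were higher (3.88%). Cdkn1a, the p21 inhibitor, was at 3.87 and 4.44 FPKM in control and BPA males and at 2.70 and 2.61 FPKM in control and BPA females, without overlap. Both female libraries lay below both male libraries in 5 genes, which were Ccnd2, Cdk4, Cdkn1a, E2f1 and Gmnn (22.5% of all rows), and above them in 6 genes, which were Aurka, Ccnb2, Cenpf, Rrm1, Tpx2 and Tyms (19.8%). The median log2 difference of the 44 genes, female minus male, was 0.003, and it lay between -0.11 and 0.11 when each library was left out in turn.

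Other genes of the cell cycle, in lists drawn up by role, lay closer to the rest of the transcriptome. Of 139 further genes 121 were tested, and 0 passed an adjusted p under 0.05 in limma. An unadjusted p under 0.05 was passed by 5 of the 121 and by 637 of all 13542 rows. In BPA 72 of the 121 were lower (59.5%, against 54.4% of all rows), with a median log2 change of -0.04. Both BPA libraries lay below both controls in 25 of the 121 and above them in 17, where 19.9% and 13.8% of all rows did so. Among 44 replication genes, 30 were lower (68.2%), with a median of -0.08, and 12 were without overlap (27.3%). Pola2, a subunit of the DNA polymerase alpha and primase complex, was at 5 and 4.91 FPKM in the controls and at 3.39 and 2.86 FPKM in BPA males and females, while Prim1, the primase subunit of the same complex, was at 31.1 and 23.5 FPKM in the controls and at 39.2 and 35.3 FPKM in BPA males and females. Among 46 further mitotic genes, 27 were lower, with a median of -0.04, and 9 were without overlap. Kif20a, a kinesin of cytokinesis, had the lowest change of these, -0.33, with 6.48 and 6.17 FPKM in the controls and 5.53 and 4.23 FPKM in BPA. Stmn1, a microtubule regulator also abundant in young neurons, had the highest, 0.23, with 1692 and 1879 FPKM in the controls and 1803 and 2419 FPKM in BPA. Among 31 further G1 genes, 15 were lower, 4 without overlap. Mdm2, the ligase that degrades p53, was at 16.5 and 16.1 FPKM in the controls and at 20.3 and 22.02 FPKM in BPA, and Gadd45b at 1.28 and 1.49 against 0.73 and 0.83 FPKM. The difference between these lists and the 45 genes was not tested.

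Markers of cells that divide in this tissue were at levels of their own. The 13 progenitor markers tested had a median log2 change of -0.11. Of these, 8 (61.5%) were lower in BPA and 5 without overlap, against 54.4% and 19.9% of all rows. The 13 summed to 1473 and 1456 FPKM in control males and females and to 1345 and 1357 FPKM in BPA males and females. Hes5, a Notch target of neural stem cells, was at 10.6 and 6.33 FPKM in the controls and at 6.26 and 3.92 FPKM in BPA, while the progenitor factor Pax6 was at 5.17 and 4.62 against 6.61 and 5.20 FPKM. The 6 oligodendrocyte lineage markers summed to 126 and 101.05 FPKM in control males and females and to 95.7 and 81.7 FPKM in BPA males and females, with a median log2 change of -0.18 and 5 of 6 lower. Olig1, the most abundant of them, was at 76.9 and 52.5 against 50.8 and 39.8 FPKM, while Sox10 was higher in BPA in both sexes, at 5.01 and 3.85 against 6.23 and 4.15 FPKM, and Olig2 had a change of -0.02. Dcx, a marker of young neurons, was at 244 and 289 FPKM in the controls and at 278 and 330 FPKM in BPA. The 8 vessel and pericyte markers had a median of -0.17 with 8 of 8 lower, 4 without overlap, between the pericyte markers Rgs5, at 25.1 and 30.4 against 17.5 and 20.7 FPKM, and Pdgfrb, at 9.57 and 9.94 against 9.54 and 9.19 FPKM. The 10 neuron markers had a median of 0.01 with 5 lower, between Syt1 at -0.17 and Dcx at 0.19, the 8 microglia markers a median of 0.03 with 3 lower, between Tyrobp at -0.46 and Aif1 at 0.43, and the 4 red blood cell markers tested a median of 0.04 with 2 lower, between Alas2 at -0.17 and Hba2 at 0.14. The meningeal median was -0.73, between Ptgds at -1.499 and Slc6a13 at -0.49, and the choroid plexus median 0.33, between Folr1 at 0.08 and Ttr at 2.28. The sums for progenitors, the oligodendrocyte lineage, vessels and meninges were lower in BPA in both sexes, as was that of the cell cycle genes. A sum follows its most abundant genes, such as Fabp7 for progenitors, at 884 and 792 FPKM in control and BPA males. By gene, 8 of 13 progenitor, 5 of 6 oligodendrocyte, 5 of 8 vessel and 5 of 8 meningeal markers were lower in males. In females 11, 4, 8 and 8 were lower, in the same order. The part of those cells in the result was not tested.

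Of the 45 genes, 6 are also listed as new gene models, transcripts assembled without a gene ID whose best protein match or orthology term is that of the gene, and these models change what a gene ID row shows. Rrm2 has 1 such model, at 3.78 and 3.97 FPKM in control and BPA males and at 3.45 and 6.96 FPKM in control and BPA females. Summed with it, Rrm2 was at 11.8 FPKM in control females and 10.5 in BPA females, and the log2 change in females was -0.16 in place of -1.05. Aurora kinase A (Aurka) has a model with more signal than its gene ID row, at 9.85, 11.2, 18.5 and 9.33 FPKM in the order control males, BPA males, control females, BPA females, and the sum changed in females by -0.54 where the gene ID row gave 0.18. For Mcm4, with 2 models, the log2 change in females was -0.81 in the sum against -0.20 in the row, from a model of only 422 bases that was at 10.9 FPKM in control females and 1.52 in BPA females. For Ccnb2, Ube2c and Gmnn the sums gave -0.13, -0.58 and 0.06 in males and 0.29, -0.02 and 0.37 in females. Their gene ID rows gave 0, -0.72 and 0.15 in males and -0.11, -0.17 and -0.07 in females. The direction in females thus turned for Aurka, Ccnb2 and Gmnn. Reads can be split between such models and the gene ID row, so the values of these 6 genes are uncertain to that extent. Ccnd1, Mcm3, Mcm6, Pcna, Rb1 and Top2a have no such model.

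**Figure D5:**
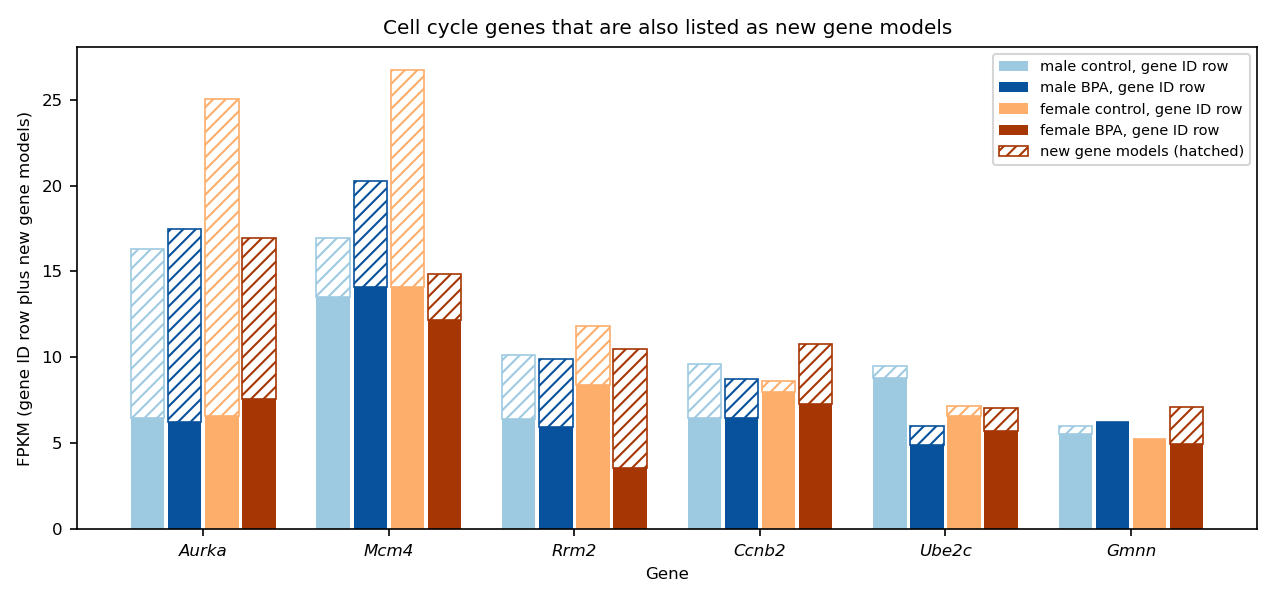
FPKM of the gene ID row (filled) and of the new gene models of the same protein (hatched, stacked on it) for 6 genes in the 4 libraries. For Rrm2 the filled part is lowest in BPA females, at 3.54 FPKM, while the whole bars lie between 9.92 and 11.8 FPKM.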

How the data were processed

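RNA was extracted from pooled hippocampi and sequenced as Illumina libraries. The authors deposited 1 FPKM value per row and library, to 2 decimals with 0.01 as the lowest value, and no read counts were used here. The submitters' processing notes name HISAT 0.1.6, Bowtie2 2.2.5, RSEM and the build rn6, without a role for each, and the annotation is not given in the sources used here. For depth, low values of gene ID rows between 300 and 1500 bases long were tried against library sizes until they stood for whole fragments, which 96.3% to 98.9% of them did to within 0.15. Clopper-Pearson counting intervals at 95% were made from it, and they cover counting error only.

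Rows in all 4 files with a mean of at least 1 FPKM were put on the scale log2(FPKM + 1), on which the fold changes of genes with low values come out too small. BPA and control, and females and males, were compared, 2 libraries against 2, in limma 3.58.1 (eBayes with trend, R 4.3.3) with Benjamini-Hochberg adjustment over all 13542 rows. Because the pools of 1 treatment differ in sex, their spread holds sex as well. Within a sex there was no test, and an absolute log2 fold change of 0.5 was used as a description. The fit was tested on simulated data. Tables and plots were made in Python 3.11.15, with RefSeq names and promoters of GRCr8 matched on the gene ID. The members and lists were chosen with earlier results of these data known. Named with per-library values were the members with the 3 highest and 3 lowest levels and the 3 largest rises and falls in each comparison with BPA, and in other cell cycle lists the genes with the largest rise and fall, which in some marker lists are given by their log2 change only. Other named genes were chosen after their values were seen. The new gene models were matched after the values were seen. The alternatives were other scalings, pseudocounts and filters, gene ID rows only, sums with new gene models, the other factor as a covariate and leaving out each library.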

Additional observations from a re-analysis of the deposited data

Results flagged for a closer look

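Of the 44 genes tested, 6 were past a log2 change of 0.5 in 1 sex and went the other way in the other sex. This was not tested, since each sex has 1 library a group, and the share of all rows that did so was not counted. The female change minus the male change was 0.74 for Cdk1, 0.69 for Mad2l1 and 0.66 for Pttg1, which were low in BPA males, and -0.55 for Ccnd3, -0.63 for Cdc20 and -0.75 for Birc5.

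New gene models of the same proteins, outside the gene ID rows that were compared, reached a higher level in a BPA library than in either control library. These were BGI_novel_G002744 of Rrm2 at 6.96 FPKM, BGI_novel_G003200 of Ccnb2 at 3.51 FPKM, BGI_novel_G001769 of Gmnn at 2.13 FPKM and BGI_novel_G002469 of Ube2c at 1.30 FPKM, all in BPA females, and BGI_novel_G001824 of Mcm4 at 1.96 FPKM in BPA males.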

How the results depend on the processing

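No alternative scaling, pseudocount, filter, choice of rows, covariate or left-out library brought a cell cycle gene past an adjusted p under 0.05 in limma, for BPA or for sex. The number of all rows past it for BPA was 0, was 2 with sex as a covariate and lay between 0 and 3 when each library was left out in turn (without BPA males it was 1 and without control females 3). For sex it was 1, with 21 at a mean of at least 5 FPKM, 34 with gene ID rows only, 55 with treatment as a covariate and 1 to 2 when each library was left out. The median change of the genes with BPA kept its sign under every alternative, between -0.19 and -0.12 in both sexes together, where 32 to 35 of 44 genes were lower when each library was left out. The combined change of 17 of the 44 genes turned its sign under some alternative, none of them past the test, and for 3 of these with all libraries kept (Aurka -0.22 and Ccnb2 0.08 with new gene models summed, and Prc1 0.01 after quantile normalization). In females the median was -0.10 after quantile normalization in place of -0.18, and the median difference between the sexes lay between -0.11 and 0.11 when each library was left out, so its direction turned. Rows past a log2 change of 0.5 numbered 975 in males, with 1538 at a pseudocount of 0.1, 237 at a mean of at least 5 FPKM, 369 with gene ID rows only and 230 at a change of 1, and 1349 in females, with 440 at a mean of at least 5 FPKM, 662 with gene ID rows only and 294 at a change of 1. Of the rows past 0.5 in females, 68.1% were lower, but 50.9% after quantile normalization. The cause was not tested. The fit with sex as a covariate pairs the libraries by sex. No block on replicate numbers could be made, since the labels carry none. Genes with under 100 fragments have wide counting intervals, and 1 pooled library a group limits every comparison.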
